A study of Mus musculus with 6 samples.

Results

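Mdivi-1 was compared with its vehicle in hematopoietic stem and progenitor cells (HSCPs) of mouse bone marrow, with 1 library per treatment. The genes described are protein-coding genes with a mean of at least 10 TPM, a unit that gives each gene its share of all transcripts, corrected for length, over both HSCP libraries. They also had to differ by less than 2-fold between the 2 replicates of each treatment in Ly6G+ cells. This left 7712 genes of the 28987 in the table and of the 20187 that are protein-coding; 7755 reached the level and 43 of these were left out by the replicate criterion. At the level threshold, Jup stood just inside with a mean of 10.0005 TPM and Acp5 just outside with 9.9917. At the replicate threshold, Mrpl18 stood inside with a largest replicate difference of 1.9997-fold and Mutyh outside with 2.0174-fold.

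All mice were C57BL/6 and carried CBL and RUNX1 mutations, as a model of myelodysplastic syndrome, a clonal disease in which the marrow makes blood cells poorly. The vehicle groups carry these mutations too, so no library is free of them. HSCPs were enriched with magnetic beads against CD117 and the mutant clone was then sorted; mutant Ly6G+ myeloid cells were sorted from the same tissue. The series holds 6 libraries, namely HSCP vehicle (n = 1), HSCP Mdivi-1 (n = 1), Ly6G+ vehicle (n = 2) and Ly6G+ Mdivi-1 (n = 2). How the mutations were introduced, what marks the mutant clone, which mouse gave which library, and the age, dose and length of treatment were not stated in the labels or the files used here.

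Mdivi-1 is used as a blocker of mitochondrial division, with the GTPase Drp1 (gene Dnm1l), which constricts mitochondria until they divide, as its described target. Stem and progenitor cells of the marrow carry the receptor tyrosine kinase CD117, the product of Kit, and many carry the sialomucin CD34. From them arise the granulocyte, monocyte, erythroid and megakaryocyte lineages, and progenitors can bear early transcripts of several lineages before they commit.

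Kit and Cd34 were both higher in the HSCP libraries than in Ly6G+ cells. Kit (chromosome 5, 75574916 to 75656722, mm10) stood at 72.2 TPM with vehicle and 64.9 with Mdivi-1, against 8.73 to 14.1 in the 4 Ly6G+ libraries. Cd34 (chromosome 1, 194938819 to 194961279) stood at 289 and 252 TPM, against 46.6 to 63.2 in Ly6G+. Transcripts of maturing granulocytes were also present in the HSCP libraries. S100a8 and S100a9, the pair of calprotectin genes of neutrophils, held 7.70% of TPM with vehicle and 7.06% with Mdivi-1, against 19.7% to 20.9% in Ly6G+. Of 30 markers of T and NK cells 24 were under 1 TPM, and of 18 markers of stroma and endothelium 13 were, with Lum and Pdgfra at 0 in both HSCP libraries. Cbl stood at 105 and 120 TPM and Runx1 at 302 and 349 TPM in HSCP vehicle and Mdivi-1; since the kind of mutation is not given, these levels check nothing.

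With 1 library per treatment, the HSCP ratio has no replicate check and no p-value is given for it. The yardstick is the ratio between the replicates of 1 treatment in Ly6G+ cells. All ratios are log2 ratios of TPM + 1, which understates the change of low genes. Over the 7712 genes the HSCP ratio of Mdivi-1 to vehicle had a median of 0.04 and an SD of 0.236. The replicate ratio had an SD of 0.169 with vehicle and 0.173 with Mdivi-1, where the replicate criterion trims both. Before that criterion the SDs were 0.260 for the HSCP ratio and 0.208 and 0.225 for the replicate ratios. The 95th percentile of the size was 0.430 in HSCP, against 0.355 and 0.364 between replicates. The treatment ratio was therefore only somewhat wider than the spread of a replicate pair from another population of cells.

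**Figure D1:**
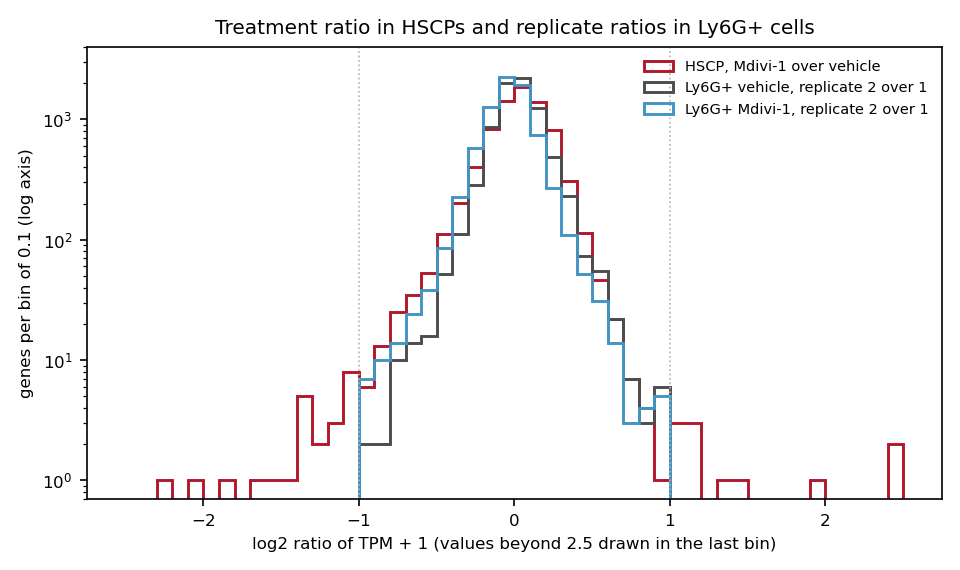
Number of genes per bin of log2 ratio, on a log axis, for HSCP Mdivi-1 over vehicle (red) and for replicate 2 over replicate 1 of Ly6G+ vehicle (grey) and Ly6G+ Mdivi-1 (blue), 7712 genes each. The curves overlap near 0; the replicate ratios end at 1 in size because the choice of genes required it, and 35 genes lie beyond it in HSCP.

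At a log2 ratio of 1 or more, 11 genes (0.143%) were higher with Mdivi-1, and at -1 or less 24 genes (0.311%) were lower, together 35 genes (0.454%). At a size of 0.5, 91 genes (1.18%) were higher and 156 (2.02%) lower, together 247 (3.2%), against 93 and 44 genes for the vehicle replicates and 57 and 93 for the Mdivi-1 replicates. Of all genes, 59.4% had an HSCP ratio above 0 and 40.6% below. These shares are the background against which each family is read. Of the 35 genes past 1, 13 had a replicate ratio of 0.5 or more in size in Ly6G+ and 12 had both replicate ratios under 0.25. In the bulk libraries, fewer cells of a type and less RNA per cell cannot be told apart.

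Families were compared by the medians of gene lists. The 63 lists with at least 5 genes had HSCP medians with an SD of 0.222, against 0.034 and 0.043 for their replicate medians; a median over many genes is narrower than single genes by construction. The largest replicate median of any list was 0.150 in size, that of genes encoded by the mitochondrial genome. In HSCP 12 lists lay below -0.150 and 8 above 0.150. These limits are centred on 0, while the HSCP median of all genes was 0.04, or 0.004 after upper-quartile scaling. Close to the limits lay G2 and mitosis (0.151), endoplasmic reticulum chaperones (0.155) and mitophagy (-0.159), so their places depend on the scaling or are narrow. The lists below were antigen presentation by MHC class II and class I, the Ly6 surface antigens, both interferon lists, mitophagy and markers of megakaryocytes, eosinophils, dendritic cells, stem cells, B cells, and mast cells and basophils. Those above were the integrated stress response, aminoacyl-tRNA synthetases, Myc targets and ribosome biogenesis, heat shock proteins, acute-phase and iron genes, the mitochondrial unfolded protein response, endoplasmic reticulum chaperones, and G2 and mitosis. The B cell median rests on 5 members, of which 1 was above 0. All 32 B cell markers in the table summed in HSCP to 1101 TPM with vehicle and 1119 with Mdivi-1.

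**Figure D2:**
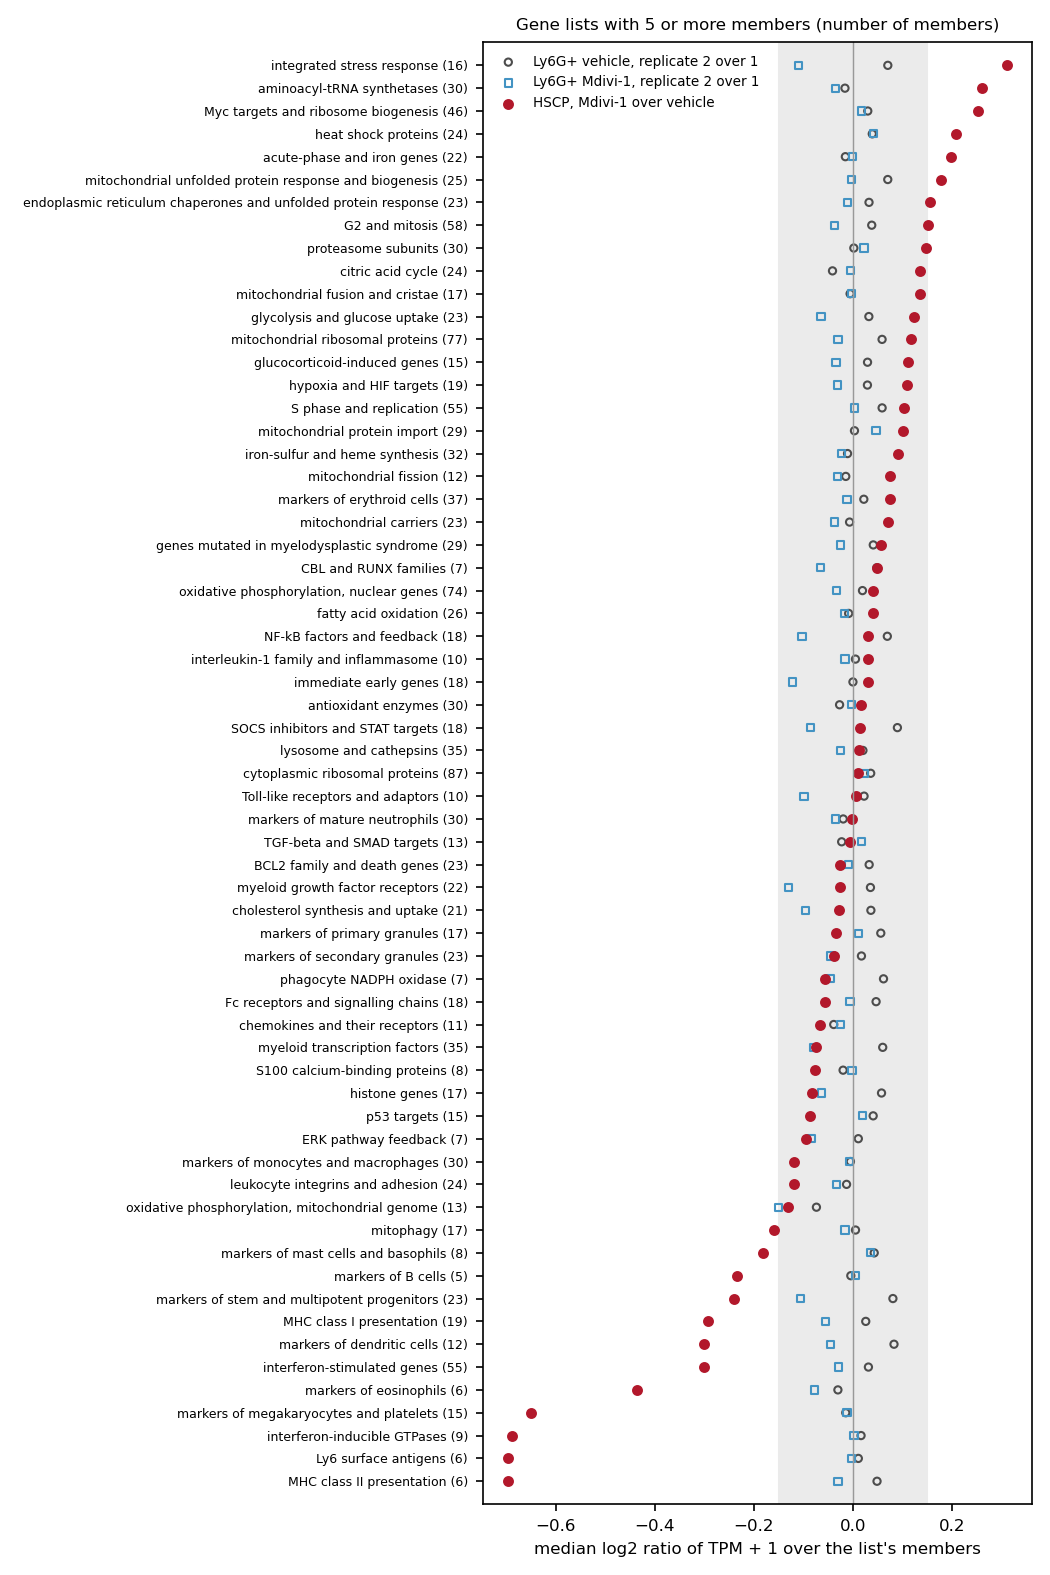
Median log2 ratio over the members of each of 63 gene lists (number of members in brackets) for HSCP Mdivi-1 over vehicle (red points), and for replicate 2 over 1 of Ly6G+ vehicle (grey circles) and Ly6G+ Mdivi-1 (blue squares). The grey band spans the largest replicate median of 0.150 in both directions; the red points run from -0.70 to 0.31.

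Genes induced by interferon were lower in the Mdivi-1 library. Interferons act through receptors whose signal leads transcription factors to interferon response elements beside genes of antiviral defence. Of 55 interferon-stimulated genes 52 were lower and 3 higher, with a median of -0.30 against 0.04 over all genes, and 17 stood at -0.5 or less. The interferon-inducible GTPases, which attack vacuoles that hold microbes, had a median of -0.69 over 9 members, of which 8 were below 0 and 5 at -0.5 or less. In Ly6G+ cells limma called 24 of the 55 and 4 of the 9 lower and none higher, against 4.47% of all 7712 genes called lower and 2.42% higher; 15 of the 22 genes at -0.5 or less in HSCP were among them. In the 64 genes of both lists the size of the HSCP ratio exceeded both replicate ratios for 56, against 43.6% of all genes.

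Isg15, a ubiquitin-like modifier of antiviral defence (chromosome 4, 156199424 to 156200818, mm10), stood in HSCP at 44.9 TPM with vehicle and 20.6 with Mdivi-1, a log2 ratio of -1.08. In Ly6G+ it was 75.2 and 72.3 TPM with vehicle and 43.4 and 44.0 with Mdivi-1 (a log2 change of -0.74, limma adjusted p = 0.0069). The treatments did not overlap in Ly6G+, and its replicate ratios were -0.06 and 0.02. Tgtp2, a GTPase of the T-cell specific family, stood at 59.3 and 28.4 TPM in HSCP vehicle and Mdivi-1 (log2 ratio -1.04), with 33.4 and 36.5 against 18.8 and 16.1 in Ly6G+ (a log2 change of -0.96, limma adjusted p = 0.013). Only 9.46% of its 31-base stretches are found in no other gene, so its reads may be shared with the near-identical Tgtp1. Igtp (log2 ratio -0.76), Irgm1 (-0.44) and Ifi47 (-0.24), 3 further GTPases of the IRG family, were lower by smaller amounts, and Gbp3, a guanylate-binding protein, had a ratio of 0.03.

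Other interferon genes were chosen after their values were seen. Ifit3, which binds foreign RNA ends together with other Ifit proteins, stood at 18.8 and 9.5 TPM in HSCP vehicle and Mdivi-1 (log2 ratio -0.91). Of its 31-base stretches 38.2% are unique, so its reads may be shared with other genes. Irf7, the transcription factor that amplifies the interferon response, stood at 88.0 and 48.4 TPM (-0.85), and Irgm2, a regulatory GTPase, at 21.5 and 11.5 TPM (-0.85). All 3 fell in Ly6G+ as well, with log2 changes of -1.10 (limma adjusted p = 0.0051) for Ifit3, -0.52 (limma adjusted p = 0.023) for Irf7 and -0.44 (limma adjusted p = 0.028) for Irgm2. Usp18, which removes Isg15 from proteins, was lower by a log2 ratio of -0.87, and the oligoadenylate synthetase genes Oas2 and Oas3, sensors of double-stranded RNA, by -0.74 and -0.62. Stat2 and Irf9, transcription factors that carry the interferon signal, had ratios of -0.26 and -0.27. The membrane proteins that block virus entry differed among themselves, with -0.23 for Ifitm3, -0.01 for Ifitm2 and 0.31 for Ifitm6. The family was thus lower in most members and to unequal degrees.

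The 250 bases before the start of 4 of these genes are shown because the letters of an interferon response element stand in each. They are from RefSeq (GRCm38.p6), 5′ to 3′ on the gene's strand, and capitals mark the searched letters, which are GAAA, any 2 bases and GAAA again, on either strand. The windows are chr4:156200819-156201068 (minus strand) for Isg15, chr11:49064213-49064462 (minus strand) for Tgtp2, chr11:58214727-58214976 (plus strand) for Irgm2 and chr19:34583279-34583528 (plus strand) for Ifit3.
Isg15: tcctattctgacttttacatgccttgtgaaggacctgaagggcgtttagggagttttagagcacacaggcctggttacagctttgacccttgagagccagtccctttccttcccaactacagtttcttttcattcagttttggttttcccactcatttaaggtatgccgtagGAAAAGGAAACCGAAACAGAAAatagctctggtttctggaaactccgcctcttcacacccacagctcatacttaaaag
Tgtp2: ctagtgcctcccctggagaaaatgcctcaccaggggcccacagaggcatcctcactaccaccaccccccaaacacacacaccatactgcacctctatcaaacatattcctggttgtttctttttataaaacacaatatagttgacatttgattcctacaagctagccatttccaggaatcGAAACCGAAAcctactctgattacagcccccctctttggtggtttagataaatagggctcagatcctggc
Irgm2: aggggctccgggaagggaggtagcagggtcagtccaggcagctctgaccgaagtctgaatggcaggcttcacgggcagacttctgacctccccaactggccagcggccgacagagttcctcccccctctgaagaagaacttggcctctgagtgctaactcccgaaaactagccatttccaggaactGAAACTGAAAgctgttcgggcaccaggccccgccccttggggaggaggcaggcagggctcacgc
Ifit3: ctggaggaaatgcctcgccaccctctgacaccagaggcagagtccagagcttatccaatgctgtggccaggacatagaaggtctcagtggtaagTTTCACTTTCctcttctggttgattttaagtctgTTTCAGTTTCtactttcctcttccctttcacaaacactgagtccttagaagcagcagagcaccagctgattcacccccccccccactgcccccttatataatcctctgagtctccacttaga

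Isg15 holds 3 overlapping matches, of which the first begins 78 bases before the start. Ifit3 holds 2 matches, and Tgtp2 and Irgm2 hold 1 each. The letters were present in 2.98% of all 32851 windows of this length, or in 3.46% of genes. Among the 16 genes of both interferon lists that stood at -0.5 or less and have a window in the table, 12 held them, which is 75%; among all 49 interferon genes with a window 23 did. Of the 120 genes of any kind at -0.5 or less with a window 25 held them (20.8%), and of the 77 genes at 0.5 or more 3 did. A match is a description of letters and says nothing of binding; both strands were searched, and overlapping matches counted.

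Antigen presentation genes were lower throughout. MHC class II molecules display peptides on professional presenting cells, and class I molecules on nearly all cells. All 6 class II genes and all 19 class I genes had ratios below 0, against 40.6% of all genes, with medians of -0.70 and -0.29. In Ly6G+ cells 5 and 9 of them were called lower, against 4.47% of all genes, and none higher. Cd74, the invariant chain that guides class II molecules, stood in HSCP at 683 TPM with vehicle and 403 with Mdivi-1 (log2 ratio -0.76). Its Ly6G+ values were 343 and 380 TPM with vehicle and 183 and 185 with Mdivi-1 (a log2 change of -0.97, limma adjusted p = 0.0054). The class II chain genes H2-Aa, H2-Ab1 and H2-Eb1 had HSCP ratios of -0.74, -0.66 and -0.78 and also fell in Ly6G+ (log2 changes -0.84, -0.79 and -0.88; limma adjusted p = 0.0080, 0.0096 and 0.027). H2-DMa, which edits the peptides of class II molecules, moved least (log2 ratio -0.17).

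B2m, the light chain shared by all class I molecules, stood at 2768 and 2259 TPM in HSCP vehicle and Mdivi-1 (log2 ratio -0.29), with -0.31 in Ly6G+ (limma adjusted p = 0.041), a call lost under both scalings of the libraries and with the replicate block. H2-K1, a classical class I heavy chain, had a ratio of -0.34, with -0.45 in Ly6G+ (limma adjusted p = 0.018). The subunits of the immunoproteasome and its activator, which cut peptides for class I, moved little, at -0.06 for Psmb8 and -0.05 for Psme1. Markers of dendritic cells, which bear class II molecules, moved with this family: their summed level came to 2925 TPM in the vehicle and 2212 in the Mdivi-1 library of HSCP over 29 markers, 6 of them under 1 TPM and none at 0 in both. That sum includes Cd74 and the class II chains themselves, and its part in the result was not tested. Cst3, an abundant dendritic and myeloid gene outside antigen presentation, stood at 945 and 905 TPM (log2 ratio -0.06).

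Markers of megakaryocytes, the cells that shed platelets, were lower in the Mdivi-1 library. Of 15 members 14 were below 0, 9 stood at -0.5 or less (60.0%, against 2.02% of all genes), and the median was -0.65. Limma called 9 of the 15 lower in Ly6G+ cells, against 4.47% of all genes, and none higher. Gp5, a subunit of the platelet receptor for von Willebrand factor (chromosome 16, 30307685 to 30310779, mm10), stood in HSCP at 18.6 TPM with vehicle and 7.4 with Mdivi-1 (log2 ratio -1.23). The Ly6G+ libraries held 11.8 and 13.8 TPM with vehicle and 3.9 and 4.3 with Mdivi-1 (a log2 change of -1.44, limma adjusted p = 0.0082). Gp9, another subunit of the same receptor, stood at 14.9 and 6.2 TPM in HSCP (log2 ratio -1.13), with a Ly6G+ change of -0.76 that did not pass (limma adjusted p = 0.13).

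Pf4, the platelet chemokine stored in alpha granules, stood in HSCP at 149 TPM with vehicle and 74.3 with Mdivi-1 (log2 ratio -0.998). In Ly6G+ cells the values were 109 and 105 TPM with vehicle and 55.2 and 45.9 with Mdivi-1 (a log2 change of -1.07, limma adjusted p = 0.0098). Nrgn, a calmodulin-binding gene also found in platelets, had an HSCP ratio of -1.27 and a Ly6G+ change of -1.43 (limma adjusted p = 0.0059), and Treml1, a receptor of platelet granules, -1.09 and -0.90 (limma adjusted p = 0.022). Itga2b, the integrin alpha chain of the fibrinogen receptor, chosen after its values were seen, stood at 114 and 63.6 TPM in HSCP and fell by 1.21 on the log2 scale in Ly6G+ (limma adjusted p = 0.0091). Rap1b, a small GTPase of the same list, had a ratio of -0.19. The summed level of the 30 markers came to 1128 TPM in the vehicle and 773 in the Mdivi-1 library of HSCP, and in Ly6G+ 1505 and 1469 with vehicle against 1248 and 1235 with Mdivi-1; 2 markers were under 1 TPM in HSCP and none was at 0 in both.

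Below the level threshold the same markers showed the same sign. Of 8 further megakaryocyte genes at 5 to 10 TPM, 7 were below 0 and 5 at -1 or less, with a median of -1.23. Examples chosen after their values were seen were Clec1b, the platelet receptor for podoplanin (11.1 and 3.6 TPM in HSCP vehicle and Mdivi-1), Ppbp, a platelet chemokine (11.7 and 4.0 TPM), and Vwf, von Willebrand factor (9.11 and 2.73 TPM). At these levels a log2 ratio rests on few TPM, and their depth in reads is unknown.

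**Figure D3:**
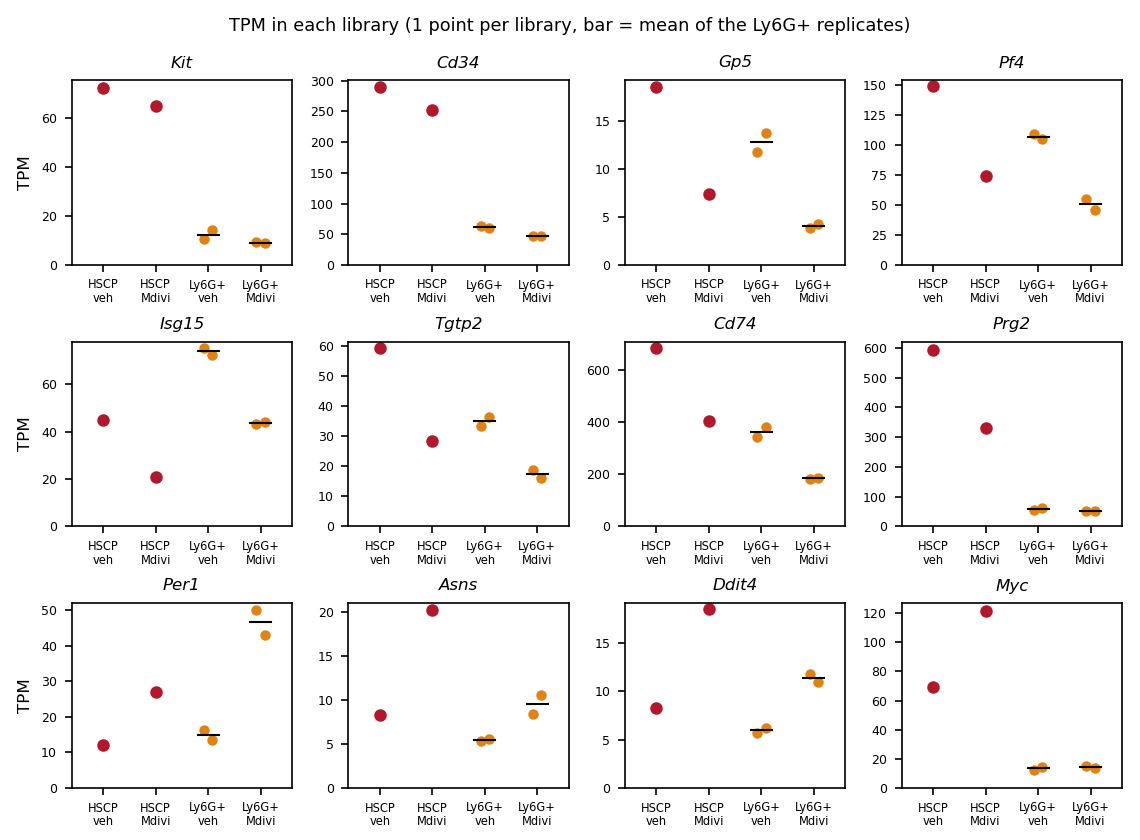
TPM of 12 genes in each of the 6 libraries, HSCP in red and Ly6G+ in orange, with a bar at the mean of the 2 Ly6G+ replicates; every axis starts at 0. Gp5, Pf4, Isg15, Tgtp2 and Cd74 are lower with Mdivi-1 in both populations and Per1, Asns and Ddit4 higher, while Prg2 and Myc differ mainly in HSCP.

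Markers of stem and multipotent progenitor cells were lower, with a median of -0.24, 19 of 23 below 0 and 5 at -0.5 or less. The size of the HSCP ratio exceeded both replicate ratios for 14 of the 23, against 43.6% of all genes. The largest replicate ratio of the list was 0.74 in size. In Ly6G+ cells 8 were called lower and 1 higher, against 4.47% and 2.42% of all genes. Pdzk1ip1, a small membrane protein gene of early stem cells, stood in HSCP at 21.7 TPM with vehicle and 7.4 with Mdivi-1 (log2 ratio -1.43). In Ly6G+ it was 8.4 and 11.5 TPM with vehicle and 2.2 and 0.9 with Mdivi-1 (a log2 change of -2.11, limma adjusted p = 0.026). The stem cell antigen Ly6a had an HSCP ratio of -0.69 and the homeobox factor Meis1 one of -0.63. Gata2, a transcription factor of early progenitors, mast cells and megakaryocytes, chosen after its values were seen, stood at 35.6 and 22.8 TPM (log2 ratio -0.62, with -1.59 in Ly6G+, limma adjusted p = 0.0077). Lmo2, a partner of Gata factors, had a ratio of -0.43 (-0.60 in Ly6G+, limma adjusted p = 0.016).

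Among the abundant genes of the same list, Cd34 had an HSCP ratio of -0.20 (-0.38 in Ly6G+, limma adjusted p = 0.035, lost under both scalings and with the block), Kit one of -0.15, and Plac8, abundant in myeloid progenitors, one of -0.02. Primary granule genes, which mark promyelocytes, had a median of -0.03 over 17 members, with 9 below 0, a median that turned positive with a mean of at least 20 TPM or replicates within 1.5-fold. Mpo, myeloperoxidase, stood at 6029 and 6268 TPM, the elastase gene Elane at 3068 and 3255 and the proteinase gene Prtn3 at 3216 and 3597, while Lyz2, a lysozyme, had a ratio of -0.31. The list of mature neutrophil markers had a median of 0.00 in HSCP, with 15 of 30 members above 0, against 0.40 in Ly6G+. Erythroid markers had a median of 0.08 over 37 members, and the alpha globin gene Hba-a1, of whose 31-base stretches 24% are unique, stood at 1205 and 1264 TPM.

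Granule genes of eosinophils and basophils were lower. Prg2, the major basic protein of eosinophil granules, stood in HSCP at 595 TPM with vehicle and 331 with Mdivi-1 (log2 ratio -0.84), while Ly6G+ held 54.1 and 61.5 TPM with vehicle and 52.3 and 52.5 with Mdivi-1 (a log2 change of -0.14, limma adjusted p = 0.36). Epx, eosinophil peroxidase, stood at 49.6 and 26.1 TPM in HSCP (log2 ratio -0.90) and Prg3, a homologue of Prg2, at 21.3 and 14.0 (-0.57). The 14 eosinophil markers summed to 954 TPM with vehicle and 620 with Mdivi-1, with Ear10 and Rnase2a at 0 in both; the difference from Ly6G+ was not tested. Of 8 members among mast cell and basophil markers all were below 0, with a median of -0.18. Prss34 and Mcpt8, proteases of basophils chosen after their values were seen, had HSCP ratios of -0.64 and -0.52 and Ly6G+ changes of -1.46 and -1.87 (limma adjusted p = 0.0022 and 0.0019).

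The Ly6 surface antigens, small lipid-anchored proteins encoded side by side, were all below 0 in HSCP, with a median of -0.70 over 6 genes. Ly6g stood in HSCP at 187 TPM with vehicle and 90.1 with Mdivi-1 (log2 ratio -1.04), and in Ly6G+ at 814 and 840 against 791 and 642 (a log2 change of -0.21, limma adjusted p = 0.28). Other late granulocyte genes did not share that ratio, with -0.15 for S100a8, -0.08 for S100a9 and 0.15 for Lcn2, while the resistin-like gene Retnlg had -0.42. Ly6f, whose function is little known, had a ratio of -0.75 in HSCP and -0.67 in Ly6G+ (limma adjusted p = 0.0062), and Ly6c2, a marker of monocytes, -0.26.

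The macrophage gene C1qa, a chain of complement C1q, stood at 45.4 and 21 TPM in HSCP vehicle and Mdivi-1 (log2 ratio -1.08). Its replicate ratios in Ly6G+ were 0.55 and -0.41, and its partner chain C1qb, chosen after its values were seen, stood at 52.4 and 48.0 TPM. Monocyte and macrophage markers as a list had a median of -0.12, with 20 of 30 below 0 (66.7%, against 40.6% of all genes). Nkg7, a granule membrane gene of cytotoxic cells that the myeloid lineage also expresses, stood at 25.4 and 9.4 TPM (log2 ratio -1.35).

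**Figure D4:**
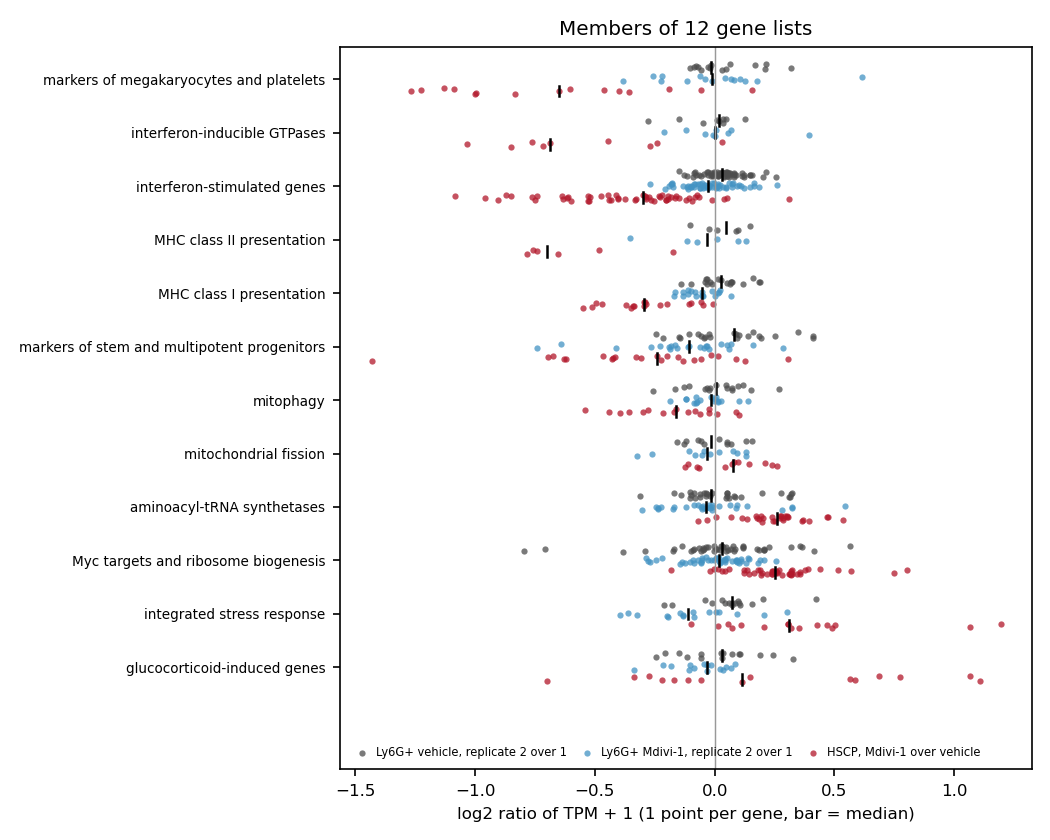
Log2 ratios of single genes in 12 lists, with a black bar at each median, for HSCP Mdivi-1 over vehicle (red) and replicate 2 over 1 of Ly6G+ vehicle (grey) and Ly6G+ Mdivi-1 (blue). Red points lie mostly left of 0 in the lists of megakaryocytes, interferon and antigen presentation, and mostly right of 0 in those of tRNA synthetases, ribosome biogenesis and the integrated stress response.

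Genes of the integrated stress response had the highest median of all lists, 0.31 over 16 members. Of these 15 were above 0, against 59.4% of all genes, and 3 stood at 0.5 or more. The size of the HSCP ratio exceeded both replicate ratios for 9 of the 16, against 43.6% of all genes. The largest replicate ratio of the list was 0.42 in size. In Ly6G+ cells 1 was called higher and 1 lower, against 2.42% and 4.47% of all genes. In this response the phosphorylation of eIF2 favours translation of ATF4, which induces genes of amino acid supply. Asns, asparagine synthetase (chromosome 6, 7675169 to 7693254, mm10), stood in HSCP at 8.32 TPM with vehicle and 20.3 with Mdivi-1 (log2 ratio 1.19). Its Ly6G+ values were 5.3 and 5.5 TPM with vehicle and 8.4 and 10.6 with Mdivi-1, values that do not overlap (a log2 change of 0.70, limma adjusted p = 0.051). Ddit4, an inhibitor of mTORC1 that stress and glucocorticoids both induce, stood at 8.32 and 18.5 TPM in HSCP (log2 ratio 1.06), with 5.7 and 6.2 against 11.7 and 11 in Ly6G+ (a log2 change of 0.83, limma adjusted p = 0.020).

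Asns carries the amino acid response element to which ATF4 binds, and its window of 250 bases is shown for that reason (RefSeq, GRCm38.p6, chr6:7693210-7693459, minus strand, 5′ to 3′, with capitals for TGATGAAAC).
Asns: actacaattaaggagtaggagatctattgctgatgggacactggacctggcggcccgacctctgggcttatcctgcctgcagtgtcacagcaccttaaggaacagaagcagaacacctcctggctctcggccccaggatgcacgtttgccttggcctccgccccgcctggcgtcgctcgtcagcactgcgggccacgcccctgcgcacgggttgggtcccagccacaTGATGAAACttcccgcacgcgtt

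The match begins 23 bases before the start annotated in RefSeq. The interval given for Asns above is from GENCODE M21, in which the gene starts further upstream, and it covers the match. The letters TGATGAAAC, searched on both strands, stood in 0.213% of all windows and in 1 of the 15 stress response genes with a window. The serine and glycine enzymes Shmt2 and Phgdh had HSCP ratios of 0.47 and 0.49, at 132 and 183 TPM and at 161 and 227 TPM. Atf4 itself, whose control is largely at translation, moved little, at 185 and 193 TPM (log2 ratio 0.06), and the stress factor Ddit3, chosen after its values were seen, had -0.10. The aminoacyl-tRNA synthetases, which charge tRNAs with amino acids, had a median of 0.26 over 30 members, with 28 above 0; Kars stood at 117 and 145 TPM and Vars at 155 and 162. Their median in Ly6G+ was -0.07.

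A set of glucocorticoid-induced genes was higher, though the list as a whole was split. Of 15 members 6 stood at 0.5 or more (40.0%, against 1.18% of all genes) and 7 were below 0, with a median of 0.11. In Ly6G+ cells 6 were called higher, 5 of them among those at 0.5 or more in HSCP, and 1 lower, against 2.42% and 4.47% of all genes. Per1, a clock gene that the glucocorticoid receptor induces directly (chromosome 11, 69095217 to 69109960, mm10), stood in HSCP at 12 TPM with vehicle and 27.0 with Mdivi-1 (log2 ratio 1.11). The Ly6G+ libraries held 16.2 and 13.5 TPM with vehicle and 50.1 and 43.0 with Mdivi-1 (a log2 change of 1.59, limma adjusted p = 0.0064). The same held for Nfkbia, the inhibitor of NF-kB, at 45.8 and 69.1 TPM in HSCP (log2 ratio 0.58, with 0.85 in Ly6G+, limma adjusted p = 0.0064).

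Fkbp5, a co-chaperone of the glucocorticoid receptor, and Tsc22d3, which encodes the leucine zipper GILZ, were chosen after their values were seen. Fkbp5 stood in HSCP at 58.8 TPM with vehicle and 101 with Mdivi-1, and in Ly6G+ at 59.8 and 61.1 against 161 and 168 (log2 ratio 0.77 in HSCP; 1.43 in Ly6G+, limma adjusted p = 0.0022). Tsc22d3 stood at 57.3 and 92.9 TPM in HSCP (log2 ratio 0.69), and its Ly6G+ change was 0.82 (limma adjusted p = 0.0079). Others of the list had smaller ratios, such as Anxa1, the anti-inflammatory annexin (0.11), or were below 0, such as Txnip, a thioredoxin inhibitor, at 165 and 158 TPM in HSCP (-0.06).

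Nab2, a corepressor of the Egr factors that is itself an immediate early gene (chromosome 10, 127660918 to 127668568, mm10), stood in HSCP at 6.96 TPM with vehicle and 28.8 with Mdivi-1 (log2 ratio 1.91). In Ly6G+ cells the values were 3.9 and 3.8 TPM with vehicle and 32.1 and 29.7 with Mdivi-1 (a log2 change of 2.72, limma adjusted p = 0.0019). Of its 31-base stretches 62.1% are unique to it. The 18 immediate early genes had a median of 0.03, or 0.00 after upper-quartile scaling, with 3 at 0.5 or more, Nab2 among them. The metallothioneins, which bind zinc, were higher in HSCP. Mt1 stood at 222 and 331 TPM (log2 ratio 0.57, with 0.98 in Ly6G+, limma adjusted p = 0.019). Mt2 stood at 14.0 and 26.8 TPM (log2 ratio 0.89), with 42% of its stretches unique.

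Genes of the acute phase and iron had a median of 0.20 over 22 members. Of these 15 were above 0 (68.2%), a share near the 59.4% of all genes. At 0.5 or more stood 5, against 1.18% of all genes. Chil3, a chitinase-like protein abundant in progenitors of granulocytes and monocytes, stood in HSCP at 2974 TPM with vehicle and 4286 with Mdivi-1 (log2 ratio 0.53), and in Ly6G+ at 6642 and 6165 against 8127 and 7654. Tfrc, the transferrin receptor, chosen after its values were seen, stood at 81.1 and 130 TPM in HSCP (log2 ratio 0.67), against 42.8 to 49.5 in all 4 Ly6G+ libraries. The ferritin genes, which store iron, moved little in HSCP, with -0.07 for Fth1 and -0.13 for Ftl1.

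Genes of growth and division were higher by small amounts in nearly all members. Myc, the transcription factor that drives ribosome biogenesis, stood in HSCP at 69.3 TPM with vehicle and 122 with Mdivi-1 (log2 ratio 0.80), and between 12.5 and 14.9 TPM in the Ly6G+ libraries. The 46 genes of ribosome biogenesis and Myc targets had a median of 0.25, and of 0.11 in Ly6G+. In HSCP 43 were above 0 (93.5%, against 59.4% of all genes). Npm1, nucleophosmin, stood at 1021 and 1307 TPM, Eif5a, a translation factor, at 1445 and 1706 TPM, and Fbl, the fibrillarin gene of the nucleolus, at 268 and 303 TPM. Cad, which begins pyrimidine synthesis, chosen after its values were seen, stood at 38.9 and 65.9 TPM (log2 ratio 0.75), with a replicate ratio of -0.80 in Ly6G+ vehicle.

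Of 58 genes of G2 and mitosis 53 were above 0 (91.4%, median 0.15), and of 55 genes of the S phase 50 were (90.9%, median 0.10). For these and the following lists, the share of all genes above 0 was 59.4%. Between the Ly6G+ vehicle replicates 69.0% of the G2 list and 69.1% of the S phase list were above 0. Between the Mdivi-1 replicates the shares were 37.9% and 54.5%. Upper-quartile scaling moved the HSCP median of all genes from 0.04 to 0.004, a shift that counts beside medians this small. Mad2l1, a spindle checkpoint gene chosen after its values were seen, had the highest ratio of either list, 0.65. All 30 proteasome subunits had ratios above 0, with a median of 0.15 and a highest ratio of 0.33, against replicate medians of 0.00 and 0.02. Heat shock proteins and chaperonins had a median of 0.21, with 20 of 24 above 0; Hspa8, the constitutive Hsp70, stood at 1403 and 1828 TPM and Hsp90aa1 at 396 and 512 TPM. Chaperones of the endoplasmic reticulum had a median of 0.16 with 21 of 23 above 0. The 87 cytoplasmic ribosomal proteins, in contrast, had a median of 0.01 with 47 above 0, a median that became -0.02 after upper-quartile scaling.

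Mitochondrial genes moved little, and in different directions by class. Dnm1l, the gene of the target described for Mdivi-1 (chromosome 16, 16312230 to 16358959, mm10), stood in HSCP at 30.6 TPM with vehicle and 35.5 with Mdivi-1 (log2 ratio 0.21), within the 95th percentile of replicate ratios. The 12 fission genes had a median of 0.08, with Fis1 at -0.07 and Mff at 0.14, both recruiters of Drp1. The 17 genes of fusion and cristae had a median of 0.14 with 15 above 0; the prohibitins Phb and Phb2, scaffolds of the inner membrane, had 0.40 and 0.24. Mitophagy genes, which mark and remove damaged mitochondria, had a median of -0.16 over 17 members, and of 0.08 in Ly6G+. In HSCP 14 were below 0 (82.4%, against 40.6% of all genes). Gabarap, of the family that coats autophagosomes, had -0.11 and Bnip3l, a mitophagy receptor, -0.16. The kinase gene Pink1, chosen after its values were seen, stood at 37.9 and 27.6 TPM (-0.44).

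The 74 nuclear genes of oxidative phosphorylation had a median of 0.04 and no member at 0.5 or more in size. The 13 genes of the mitochondrial genome had a median of -0.13, and their replicate medians were -0.07 and -0.15, so this value lies within the replicate spread. The mitochondrial genome held 4.19% of TPM with vehicle and 3.69% with Mdivi-1 in HSCP, against 2.32% to 2.48% in Ly6G+. Of the 31-base stretches of mt-Co2 0% are unique, of mt-Co3 0.13% and of mt-Atp6 0.46%, so their reads may be shared with other genes. For mt-Co1 the share is 36.1% and for mt-Cytb 93.4%. Mitochondrial ribosomal proteins had a median of 0.12 with 63 of 77 above 0 (81.8%, against 59.4% of all genes). Citric acid cycle genes had 0.14 with 22 of 24 above 0 (91.7%). The chaperones and proteases of the mitochondrial stress response had 0.18 with 22 of 25 above 0, among them Hspd1, the matrix chaperonin, at 238 and 286 TPM.

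Most of the largest single ratios belonged to genes outside these families. Ran, the GTPase of nuclear transport, stood in HSCP at 306 TPM with vehicle and 2692 with Mdivi-1 (log2 ratio 3.13), while the Ly6G+ libraries held 331 and 524 with vehicle and 623 and 495 with Mdivi-1. Its replicate ratio was 0.66 with vehicle, and 81.2% of its 31-base stretches are unique. Mpp1, a membrane scaffold of red cells and neutrophils, stood at 514 and 110 TPM in HSCP (log2 ratio -2.22), and at 173 and 136 against 161 and 158 in Ly6G+. March8, a ubiquitin ligase of surface proteins, stood at 54.0 and 14.1 TPM in HSCP (log2 ratio -1.87), and between 19.1 and 20.1 in all 4 Ly6G+ libraries. The Ly6G+ treatments overlap for Ran and Mpp1, and for March8 they differ by little. Among 81 processed pseudogenes, taken without the replicate criterion, 18.5% passed 1 in size in HSCP, against 0.454% of the 7712 genes. Gm12896 stood at 134 TPM with vehicle and 11343 with Mdivi-1, and Gm15272 at 14109 and 4446. Of their 31-base stretches 1.02% and 42.4% are unique. Whether the assignment of reads among similar sequences plays a part in such ratios was not tested.

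Other large ratios came with wide replicates. Gabbr1, a GABA receptor subunit, had an HSCP ratio of -2.04 and a replicate ratio of -0.83 with Mdivi-1. Cnot6l and Cnot8, both deadenylases of the CCR4-NOT complex, had -1.51 and 1.46, with replicate ratios of -0.62 and -0.61 with vehicle. Mrpl23, a mitochondrial ribosomal protein, had 1.14 and a replicate ratio of -0.76 with Mdivi-1. Psd4, an exchange factor for Arf6, had steady replicates (-0.03 and 0.13) and stood at 180 and 71.3 TPM in HSCP (log2 ratio -1.33), with a Ly6G+ change of -0.41 (limma adjusted p = 0.039) that was not called under either scaling or with the block. The single largest ratio, 6.24, was that of the predicted gene Gm17402, at 0.3 and 98.3 TPM in HSCP vehicle and Mdivi-1, between 32.5 and 101 TPM in the Ly6G+ libraries, and with replicate ratios of 0.96 and -0.94. It was chosen after its values were seen.

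The Ly6G+ libraries give a tested comparison of the same treatment in other cells; no label ties a library to a mouse, so its p-values measure the spread between libraries. There limma (2 residual degrees of freedom, Benjamini-Hochberg over 11775 genes) called 290 genes higher (2.46%) and 499 lower (4.24%), so that 36.8% of calls were higher; with libraries scaled by the median of ratios this share was 51.8%, and by the upper quartile 50.3%. Among the 7712 genes it called 187 higher (2.42%) and 345 lower (4.47%). The number of calls depended on single libraries, with 35 higher and 7 lower without vehicle replicate 1, 17 and 5 without vehicle replicate 2, 116 and 163 without Mdivi-1 replicate 1, and 104 and 108 without Mdivi-1 replicate 2. Of the 33 genes whose passing Ly6G+ p is given above or below, most lost their call without either vehicle replicate. Fewer lost it without either Mdivi-1 replicate. The calls that could be tested again kept their sign. Each of these fits reuses the other libraries of the main fit, so the kept sign is no independent check.

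Most genes lower in HSCP also had a Ly6G+ change below 0, though fewer were called. Of the 156 genes at -0.5 or less in HSCP, 128 had a Ly6G+ change below 0 (82.1%). Of the 91 at 0.5 or more, 65 had one above 0 (71.4%). The median Ly6G+ change of all genes was -0.05. Of the 156 genes at -0.5 or less in HSCP, limma called 62 lower in Ly6G+ (39.7%, against 4.47% of all 7712), 3 higher and 91 not. Of the 91 at 0.5 or more it called 20 higher (22%, against 2.42%), 2 lower and 69 not. Read the other way, 281 of the 345 genes called lower in Ly6G+ had an HSCP ratio below 0 (81.4%, against 40.6%), with a median of -0.19. Of the 187 called higher 122 had a ratio above 0 (65.2%, against 59.4%), with a median of 0.12. Across the 7712 genes the HSCP ratio and the Ly6G+ change had a Pearson's r of 0.337 and a Spearman's rho of 0.299, whereas r with the replicate ratios was 0.019 and 0.028. Genes are not independent replicates, and the populations share the genotype of the mice, so these values are descriptions.

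**Figure D5:**
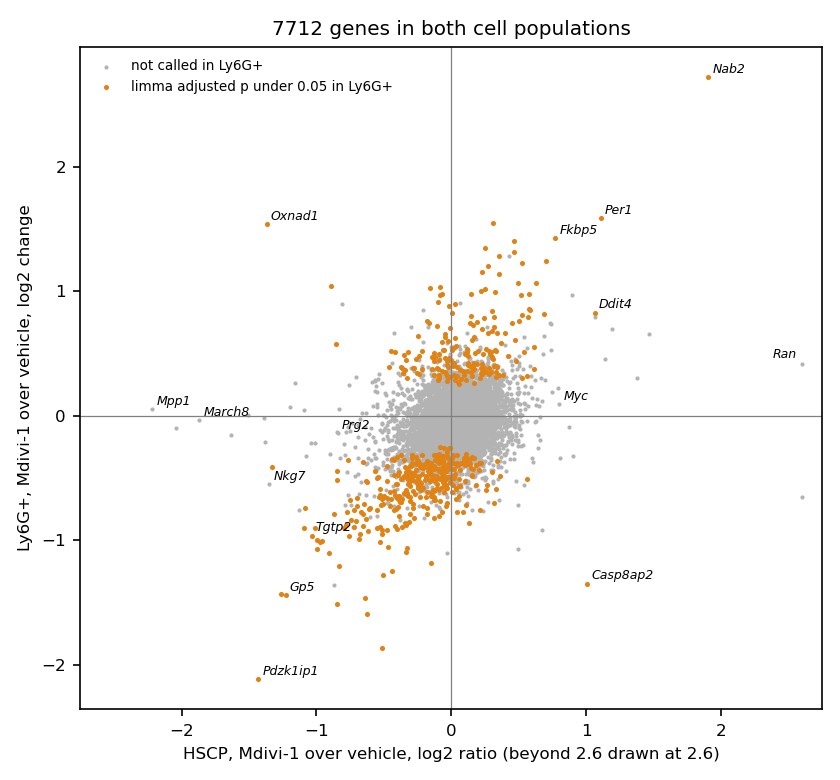
HSCP log2 ratio (x axis) against the Ly6G+ log2 change (y axis) for 7712 genes, orange where limma called the gene in Ly6G+ and grey otherwise; Ran and Gm17402 are drawn at the right edge. Nab2, Per1, Fkbp5 and Ddit4 lie high in both, Gp5, Pdzk1ip1 and Tgtp2 low in both, and Oxnad1 and Casp8ap2 in opposite corners.

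The medians of some families in HSCP and Ly6G+ are given side by side, with no test of the difference. Mature neutrophil markers had 0.00 in HSCP and 0.40 in Ly6G+, ribosome biogenesis 0.25 and 0.11, aminoacyl-tRNA synthetases 0.26 and -0.07, and erythroid markers 0.08 and -0.26. Interferon-stimulated genes (-0.30 and -0.34), MHC class I (-0.29 and -0.30), MHC class II (-0.70 and -0.81) and megakaryocyte markers (-0.65 and -0.81) had the same sign in both. The opposite sign past the threshold was found for 2 genes past 1 in HSCP. Oxnad1, an oxidoreductase-like gene, stood at 51.7 and 19.4 TPM in HSCP vehicle and Mdivi-1, and at 6.7 and 5.7 against 20.4 and 19.5 in Ly6G+ (a log2 change of 1.54, limma adjusted p = 0.0054). Casp8ap2, a gene of histone transcription and apoptosis signalling, stood at 7.3 and 15.7 TPM in HSCP and at 5.0 and 4.6 against 1.0 and 1.6 in Ly6G+ (a log2 change of -1.35, limma adjusted p = 0.024).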

How the data were processed

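RNA of 6 bone marrow libraries (HSCP vehicle and Mdivi-1, 1 each; Ly6G+ vehicle and Mdivi-1, 2 each) was sequenced. The deposited table holds TPM per gene made by the authors with kallisto, with bcl2fastq and CASAVA 1.8 and the mm10 build, per the submitters' processing notes; the kallisto version, the annotation and the summing of transcripts are not given in those notes. TPM keeps no depth, so the depth and counting error are unknown. Library totals lay between 963243 and 979168 TPM.

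Symbols and biotypes were taken from GENCODE M21; 27475 gene IDs matched and 1512 did not. All table columns were mapped to samples by name. Ratios are log2 of TPM + 1. HSCP has 1 library per treatment and no test. Ly6G+ cells were tested with limma 3.58.1 (R 4.3.3, trend and robust) on genes with at least 1 TPM in 2 of 4 libraries, with Benjamini-Hochberg adjustment and a threshold of 0.05; the fit was checked on simulated data. Python 3.11.15 was used for the rest. Uniqueness is the share of a gene's 31-base stretches in no other gene.

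The genes and the 67 gene lists were chosen with earlier results of these data known. Named were Kit, Cd34, Dnm1l and Ly6g, the 15 genes with an established symbol (predicted genes left out) and the largest HSCP ratio in each direction, up to 5 per list (those past the fold, then the most abundant), those with opposite calls in Ly6G+ and those at the thresholds; others are marked as chosen after their values were seen. Alternatives varied the pseudocount, level, replicate limit, scaling, filter, replicate block and libraries.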

Additional observations from a re-analysis of the deposited data

Results flagged for a closer look

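Oxnad1 and Casp8ap2 are listed because the treatment ratio had opposite signs in the HSCP and Ly6G+ cells; the difference was not tested. Oxnad1 had a log2 ratio of -1.37 in HSCP and of 1.54 in Ly6G+ (limma adjusted p = 0.0054), a call lost without Ly6G+ vehicle replicate 2. Casp8ap2 had 1.01 in HSCP and -1.35 in Ly6G+ (limma adjusted p = 0.024), and this call was lost without Ly6G+ Mdivi-1 replicate 1 and without either vehicle replicate.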

How the results depend on the processing

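The number of genes past a log2 ratio of 1 in HSCP, 11 higher and 24 lower, depended on the level required: 19 and 47 at a mean of at least 5 TPM, 4 and 14 at 20 TPM, and 48 and 115 with no minimum. With a pseudocount of 5 TPM 5 were higher, and with replicates within 1.5-fold 7 were. A log2 ratio of 0.5, chosen after seeing the data, gave 91 and 156. The cause was not tested beyond the number of genes each setting admits. Over 63 lists and 10 settings, 579 of 630 medians stayed within 0.043 of their value in the main setting and 51 moved further. That limit is the larger SD of the replicate medians of the lists. It measures the shift between settings, and does not place a median inside the replicate spread.

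In Ly6G+, 290 higher and 499 lower calls became 104 and 114 with no filter on low values, and lay between 17 and 116 higher and between 5 and 163 lower when 1 library was left out. The 2 scalings gave 393 and 366, and 380 and 376. With the replicate block 152 were higher and 173 lower; the crossed replicate block, added after seeing the data, gave 224 and 381. The labels share only a number, and the replicate differences of the treatments had a correlation of -0.113. Of the 33 quoted genes 20 passed with no filter, 30 under each scaling (B2m, Cd34 and Psd4 did not) and 28 with the block (nor did Irgm2 and Pdzk1ip1); 32 passed with the crossed block, all but B2m. TPM carries no depth, so what depth limits could not be set, and 1 library per treatment gives the HSCP ratios no error.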

Other observations

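Among 1360 protein-coding genes at 5 to 10 TPM in HSCP, 8 were higher and 23 lower by a log2 ratio of 1 or more. Over all 11775 genes tested in Ly6G+, limma called 2.46% higher and 4.24% lower. Of the 8 it called 4 higher and 1 lower (Tulp4), and of the 23 it called 14 lower and 1 higher (Stab1). These and the following were chosen after their values were seen. Clu, the chaperone clusterin that platelets store, stood at 17.1 TPM with vehicle and 2.69 with Mdivi-1, and Cavin2, a caveolar protein gene also found in platelets, at 15.5 and 2.72 TPM. The surrogate light chain genes of early B cells, Igll1 and Vpreb1, had log2 ratios of -1.24 and -1.10. Other genes of B and plasma cells went the other way. Igkc, a B cell marker not classed as protein-coding, stood at 147 TPM with vehicle and 291 with Mdivi-1 in HSCP. Jchain, a plasma cell marker, stood at 3.61 and 9.50 TPM. Socs3, the feedback inhibitor of cytokine signalling, stood at 2.14 and 8.60 TPM, and Dusp1, a phosphatase that glucocorticoids induce, at 5.14 and 13 TPM.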
